A study of Homo sapiens with 8 samples.

Results

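Some m6A peaks in HCT116 cells ran across several exons of the spliced transcript, and those built from at least 4 exon blocks are described here. A block is the piece of a peak that lies in 1 exon, and the peaks were chosen on their number of blocks alone. They made up 3498 of the 70751 peaks in 4 lists and are called multi-exon peaks below. Multi-exon peaks from different lists were joined into 1 region where their blocks shared a base on the same strand, which gave 1340 regions that carried 1273 gene names.

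HCT116, a human colorectal carcinoma line, was cultured with PBS (Control) or with Fusobacterium nucleatum (FUSO), an anaerobic bacterium found in colorectal tumours, for 2 h. Polyadenylated RNA was fragmented and precipitated with an m6A antibody (IP) beside unselected fragments (input), with 2 replicates for each of Control input, Control IP, FUSO input and FUSO IP. The comparison asked whether exposure to the bacterium changed the peaks. All samples came from 1 cell line, and each peak list belonged to 1 IP library with its input.

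N6-methyladenosine is laid down on adenosines of messenger RNA by a writer complex built around METTL3 and METTL14, largely at GGAC-like sites near stop codons and in long internal exons. Exon junction complexes deposited at splice junctions keep the writer away from short internal exons, so coding stretches made of many short exons usually carry little of the mark. Reader proteins of the YTH family bind the mark and direct the turnover or translation of the transcript.

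The lists held 17198 and 18149 peaks in Control and 18365 and 17039 in FUSO. Low FPKM values placed the input libraries at 1, 1.11, 1.23 and 0.912 in relative depth for Control 1, Control 2, FUSO 1 and FUSO 2, while neither read totals nor any measure of depth for the IP was given. Of 10 colon epithelial markers 8 exceeded 1 FPKM in the input, summing to 4616 to 5377, with CDX1 listed at 0 and VIL1 at 0.018 FPKM or less. None of 4 blood and none of 3 endothelial markers exceeded 1 FPKM, and of 5 fibroblast markers only COL1A1 did, at 3.78 to 5.72 FPKM.

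The sequence of these peaks was rich in purines, which is visible in whole exons taken from their interior. For each of the 8 regions with the most blocks, the inner coding exon nearest the middle of the peak is shown on the strand of the transcript of GRCh37/hg19 with every GAA in capitals. SLTM encodes an RNA-binding modulator of transcription, EIF3A the largest subunit of translation initiation factor eIF3, CLSPN a mediator of the replication checkpoint and EIF5B a GTPase that joins the ribosomal subunits. TAF15 and HNRNPA3 encode RNA-binding proteins, CEP95 a centrosomal protein and KTN1 a membrane protein that binds kinesin.
SLTM exon 16 of 21, chr15:59181629-59181753 (-): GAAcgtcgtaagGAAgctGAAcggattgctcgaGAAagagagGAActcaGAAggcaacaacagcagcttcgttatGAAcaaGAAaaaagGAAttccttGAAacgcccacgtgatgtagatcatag
EIF3A exon 17 of 22, chr10:120809313-120809497 (-): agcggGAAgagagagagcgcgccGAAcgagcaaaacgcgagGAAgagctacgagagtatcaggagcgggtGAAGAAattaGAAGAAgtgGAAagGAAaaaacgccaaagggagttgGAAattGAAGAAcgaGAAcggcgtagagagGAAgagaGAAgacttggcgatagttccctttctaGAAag
CLSPN exon 6 of 25, chr1:36227599-36227671 (-): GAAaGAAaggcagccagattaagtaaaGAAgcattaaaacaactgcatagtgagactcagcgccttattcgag
EIF5B exon 6 of 24, chr2:99980734-99980884 (+): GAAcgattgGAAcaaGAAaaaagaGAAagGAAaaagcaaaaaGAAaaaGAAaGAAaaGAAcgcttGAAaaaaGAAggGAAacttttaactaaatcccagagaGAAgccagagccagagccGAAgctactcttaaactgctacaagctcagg
TAF15 exon 11 of 16, chr17:34165428-34165557 (+): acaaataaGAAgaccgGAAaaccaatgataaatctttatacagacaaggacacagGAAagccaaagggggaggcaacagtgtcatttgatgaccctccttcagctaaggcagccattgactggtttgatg
CEP95 exon 15 of 20, chr17:62528957-62529126 (+): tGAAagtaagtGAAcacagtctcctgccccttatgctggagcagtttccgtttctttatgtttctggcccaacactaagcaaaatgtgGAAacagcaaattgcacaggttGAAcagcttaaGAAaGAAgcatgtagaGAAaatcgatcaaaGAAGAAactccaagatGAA
HNRNPA3 exon 6 of 11, chr2:178081404-178081499 (+): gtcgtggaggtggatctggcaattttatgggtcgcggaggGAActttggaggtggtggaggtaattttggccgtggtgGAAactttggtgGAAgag
KTN1 exon 9 of 44, chr14:56101244-56101376 (+): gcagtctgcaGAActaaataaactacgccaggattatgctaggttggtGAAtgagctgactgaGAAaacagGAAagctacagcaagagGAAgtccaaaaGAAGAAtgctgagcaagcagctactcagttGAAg

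Purines made up 75.1% of the EIF3A exon, 72.9% of the EIF5B exon and 57.6% of the CEP95 exon, the extremes of the set. The EIF3A exon held GAA 16 times and the EIF5B exon 14 times. The exons of CLSPN, TAF15 and HNRNPA3 held it 3 times each. GGAC, the core of the m6A consensus, occurred once in the TAF15 exon and in none of the other 7.

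Of the regions with the lowest p-values, 8 are shown by a GGAC site. They had a multi-exon peak in all 4 lists, and the lowest deposited p-value of any peak in the region was 0 in each list. The GGAC nearest the middle of the peak is given in capitals with 13 bases on each side. Among them are YTHDF2, a reader that promotes decay of methylated transcripts, HSP90AA1, a chaperone, DDX42, an RNA helicase, and SRP19, a subunit of the signal recognition particle. HNRNPA2B1 and SRSF11 encode splicing regulators and ZNF146 a zinc finger protein.
ZNF146, 3′ UTR, chr19:36728340-36728369 (+): ctaaaaacttaagGGACaccagaaaatttg
SSFA2, coding, chr2:182780086-182780115 (+): ccctcttcagaagGGACtagagaaggcagc
YTHDF2, coding, chr1:29069883-29069912 (+): tggtaatggagtaGGACagtctcaggctgg
DDX42, coding, chr17:61895120-61895149 (+): ggggcaagtgggtGGACtagtgcagggagc
HSP90AA1, coding, chr14:102552267-102552296 (-): atcgccaagtctgGGACcaaagcgttcatg
SRP19, coding, chr5:112203139-112203168 (+): aaactaaaaacaaGGACacaaaaaacagga
HNRNPA2B1, coding, chr7:26233239-26233268 (-): atatggtggtggaGGACctggatatggcaa
SRSF11, coding, chr1:70716134-70716163 (+): aagataaggaaaaGGACcgggaaagaaaat

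The peak of YTHDF2 held GGAC 13 times over 2200 nt, that of DDX42 10 times over 1378 nt and that of SRSF11 2 times over 838 nt. These matches describe the sequence and do not mark methylated positions, which the method does not resolve to a base.

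Each list held a similar number of multi-exon peaks. There were 788 and 973 in Control and 912 and 825 in FUSO, and the 2 groups overlapped. The means were 880.5 ± 131 (SD, n = 2) and 868.5 ± 61.5 (SD, n = 2), a difference of -12.0 (two-sided exact permutation test, p = 1, where 2 lists against 2 cannot give less than 0.333). As a share of all peaks they were 4.58% and 5.36% in Control and 4.97% and 4.84% in FUSO, a difference of -0.0676 percentage points (exact permutation p = 1). They covered 8.44% and 9.96% of all peak bases in Control and 9.05% and 8.95% in FUSO. In both measures Control 1 was lowest and Control 2 highest, with both FUSO lists between them.

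The block count fell off steeply. Exactly 4 blocks were found in 2134 members, or 61.0%, 5 in 780, 6 in 321 and 7 in 127, and the largest count was 12, reached by 2 peaks of SLTM. Just outside the threshold stood 5988 peaks of 3 blocks. The median length was 510 nt at 3 blocks and 570 nt at 4 blocks, and median GC content 48.7% and 47.3%, so that no break in these measures marked the threshold. Inner blocks of the members are whole exons by the definition of a block, and 9309 of 9473 (98.3%) had the exact start and end of an annotated exon. Inner blocks were short, with a median of 108 nt (quartiles 75 and 155 nt), and 86.2% were under 200 nt.

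Multi-exon peaks were long and had low p-values. Their median length was 600 and 684 nt in Control and 629 and 628 nt in FUSO, against 240 nt for peaks of 1 block in every list. The median deposited p-value was 4.75e-41 and 6.3e-43 in Control and 5e-42 and 4e-37 in FUSO, against 2.2e-06 to 4e-06 for peaks of 1 block. A p-value of 0 was deposited for 35, 39, 33 and 27 multi-exon peaks of Control 1, Control 2, FUSO 1 and FUSO 2. A longer peak can hold more fragments, and the part of length in these p-values was not tested.

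Most multi-exon peaks were centred in coding sequence. Among the members that fitted the canonical transcript of their gene, the midpoint lay in the coding sequence in 80.7% and 80.9% of Control and 79.8% and 80.2% of FUSO peaks. For peaks of 1 block the shares were 39.0%, 38.7%, 36.6% and 36.6% in the same order. The mean difference was 42.7 ± 0.855 percentage points (SD, n = 4 lists). The 3′ UTR held the midpoint of 4.35% of members and of 44.8% of peaks of 1 block, a difference of -40.4 ± 1.97 points (SD, n = 4). Most 3′ UTRs are a single exon, so the choice by block count set these differences, and they are given as a description.

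Though centred in coding sequence, 46.9% to 49.9% of the members covered the stop codon, against 22.7% to 23.1% of peaks of 1 block. Peaks of 2 and 3 blocks did so somewhat more often than the members, at 50.6% to 53.3% and 53.2% to 55.3%. The exon at the midpoint of a coding member had a median of 168 to 203 nt across the lists. For coding peaks of 1 block that exon had a median of 1798 to 1876 nt, and 90.3% to 92.0% of these exons were over 400 nt. Peaks of 1 block can only lie in exons long enough to hold them, so this contrast follows in part from the choice by block count.

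Purine content was higher in peaks of more blocks, up to 7 blocks. The median was 51.7% at 1 block, 53.0% at 2, 54.4% at 3, 56.5% at 4, 59.0% at 5, 61.4% at 6 and 63.2% at 7 blocks. From 8 to 12 blocks, where a count held 63 peaks or fewer, it lay between 62.0% and 64.2% with no further rise. The mean over members was 58.9% and 58.1% in Control and 58.2% and 58.7% in FUSO, against 51.6% to 51.9% for peaks of 1 block. The difference was 6.74 ± 0.322 points (SD, n = 4 lists; two-sided exact sign-flip permutation test, p = 0.125, the smallest that 4 lists allow) and was present in all 4 lists. Among peaks centred in coding sequence it was 6.98 ± 0.265 points (60.05% against 53.1%, n = 4, exact p = 0.125).

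GAA, the purine triplet that also spells a glutamate codon, followed the same order. Per 1000 nt it occurred 35.7 and 33.9 times in Control members and 36.3 and 37.4 times in FUSO members, against 20.9 to 21.4 times in peaks of 1 block (difference 14.7 ± 1.30, SD, n = 4, exact p = 0.125). The hexamer GAAGAA, which contains 2 GAA matches, was found in 70.9% to 75.5% of members and in 19.8% to 20.2% of the shorter peaks of 1 block. Its density was 2.98 against 0.845 per 1000 nt (difference 2.14 ± 0.186, SD, n = 4, exact p = 0.125).

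The GGAC core of the m6A consensus did not follow that order. GGAC occurred 4.93 and 4.96 times per 1000 nt in Control members and 4.34 and 4.39 times in FUSO members, against 5.21 to 5.34 in peaks of 1 block. The difference was -0.615 ± 0.308 (SD, n = 4, exact p = 0.125). The wider consensus DRACH, in which D is A, G or T, R is A or G and H is A, C or T, went the other way, at 23.6 against 21.4 per 1000 nt (difference 2.20 ± 0.276, SD, n = 4, exact p = 0.125). All motifs were searched on the strand of the transcript, and every GGAC followed by A, C or T is also a DRACH match.

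**Figure D1:**
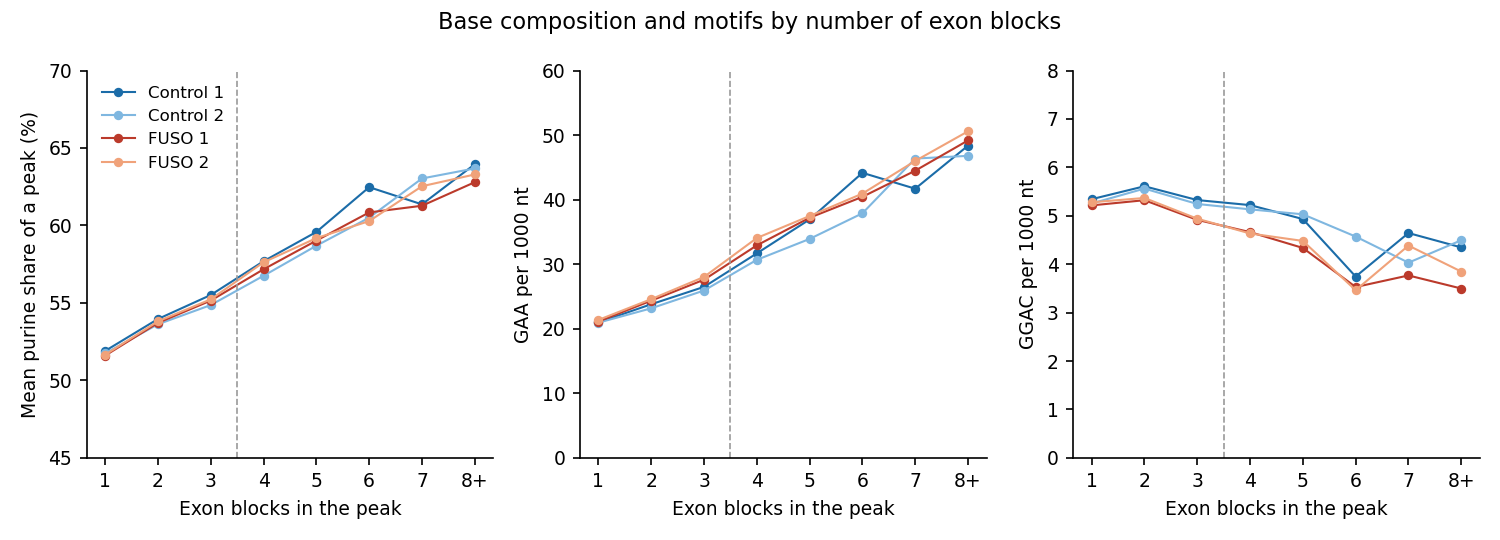
Mean purine share of a peak (left, axis from 45%), GAA per 1000 nt (middle) and GGAC per 1000 nt (right) against the number of exon blocks, with 1 line for each peak list and the dashed line at the threshold of at least 4 blocks. Purine share and GAA are higher at 8 or more blocks than at 1 block in all 4 lists, while GGAC lies lower in the members than in peaks of 1 block.

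The members fell into 2 kinds by their longest block. In 2225 peaks (63.6%) every block was at most 400 nt, and in 1273 (36.4%) at least 1 block was longer. The first kind had a mean purine share of 60.5%, 41.7 GAA per 1000 nt and a median length of 481 nt. The second kind had 54.9%, 31.4 GAA per 1000 nt and a median length of 1080 nt. GGAC differed less, at 4.51 and 4.77 per 1000 nt, and 36.99% of the first kind covered a stop codon against 65.6% of the second. By list, the first kind had a mean purine share of 60.2% to 60.8% and the second of 54.5% to 55.2%, and the ranges did not overlap.

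Within a transcript, the exons under a multi-exon peak were mostly richer in purines than the exons outside it. In 854 regions the canonical transcript had internal coding exons both inside and outside the peak, 2288 and 9426 exons in all. The median purine share was 61.3% in the covered and 54.8% in the other exons, with the covered exons higher in 669 regions (78.3%) and lower in 185. GAA had medians of 41.4 and 31.1 per 1000 nt and was higher in the covered exons of 595 regions. Exon length had medians of 118 and 119 nt and GGAC of 3.47 and 3.45 per 1000 nt in covered and other exons. Among the 293 regions of this kind with a multi-exon peak in all 4 lists, the covered exons were higher in purines in 251 (63.2% against 55.6%). A gene with more than 1 region entered once for each region. The exons under 1 region could then be other exons for the next, as in HNRNPH3 (65.7% against 59.1%, then the reverse). Exons of 1 transcript are not independent of each other, and these counts carry no test.

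SLTM and EIF5B kept their long runs of exons in every list. The SLTM peak on chr15:59172084-59186649 (minus strand) spanned 12, 12, 11 and 11 exons in Control 1, Control 2, FUSO 1 and FUSO 2 and 1620 to 1860 nt of exon sequence. The EIF5B peak on chr2:99953834-99995490 (plus strand) spanned 10, 10, 10 and 11 exons and 2005 to 2035 nt, with 71.5% purines and GAA 72.2 times per 1000 nt. In these 2 genes the 4 lists drew the peak almost alike.

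EIF3A and TAF15 were drawn differently in the 2 groups. EIF3A (chr10:120795216-120817740, minus strand) had 1 peak of 11 exons in each Control list and 2 peaks, the larger of 8 exons, in each FUSO list, yet the covered length was 2720, 2780, 2691 and 2661 nt. TAF15 (chr17:34149742-34174216, plus strand) had 1 peak of 11 exons in each Control list and 2 peaks, the larger of 6 exons, in each FUSO list, covering 1599, 1628, 1422 and 1364 nt. FPKM did not differ between the groups past the threshold for either gene (limma, log2 change -0.13 ± 0.07 SE, adjusted p = 0.477, and -0.05 ± 0.05, adjusted p = 0.688). HNRNPA3 went the other way, where the largest peak had 8 exons in either Control list but 11 and 9 exons after exposure.

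In 1 region each of CLSPN, CEP95 and KTN1 a single list held the long peak. CLSPN had 1 peak of 11 exons in Control 2 and 3 or 4 separate peaks of at most 4 exons in the other lists. CEP95 and KTN1 reached 11 exons there in FUSO 2 and at most 3 and 4 in the others. A second region of KTN1 had a multi-exon peak in all 4 lists, and a second region of CLSPN had one in 2 lists. The length covered in CEP95 was 212, 91, 392 and 1408 nt in Control 1, Control 2, FUSO 1 and FUSO 2.

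The longest members lay in CENPF, AKAP12, ANKRD11, ASXL1 and BCL9L. CENPF, a kinetochore protein, had a peak of 10 exons and 7992 nt in FUSO 1 (chr1:214811235-214837256, plus strand), and 3 peaks that together covered 7066, 7397 and 7665 nt in Control 1, Control 2 and FUSO 2. AKAP12, a scaffold of protein kinase A, had 5790 nt of peak across 5 exons in Control 1. ANKRD11, a chromatin regulator, had 5149 nt in Control 2. ASXL1, a partner of Polycomb proteins, reached 4522 nt and BCL9L, a coactivator of beta-catenin, 3810 nt. In ANKRD11 both Control lists held 5-exon peaks and both FUSO lists 4 separate peaks of at most 2 exons, while the covered length was 5030, 5149, 4644 and 4523 nt.

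Among the regions with the lowest p-values, SSFA2, YTHDF2, DDX42 and SRP19 had exactly 5 exons in 1 peak in every list. The YTHDF2 peak (chr1:29063401-29095692, plus strand) covered 2171, 2141, 2200 and 2142 nt in Control 1, Control 2, FUSO 1 and FUSO 2. HNRNPA2B1 had 8, 8, 7 and 7 exons and SRSF11 had 7, 7, 7 and 6. HSP90AA1 was split into 2 peaks, the larger of 4 exons, in both Control lists and was 1 peak of 6 exons in both FUSO lists. ZNF146, BCL2L1 and TRIB1, a pseudokinase, completed the 10, with at most 4 or 5 exons in a list. A p-value of 0 in all 4 lists was found for 24 regions in all, and the 10 were taken from these by length.

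The 4 lists placed peaks at the same regions but joined their exons differently. Of the 1340 regions, 462 (34.5%) had a multi-exon peak in all 4 lists, 203 in 3, 251 in 2 and 424 (31.6%) in 1 list. A peak of any block count lay in the region in all 4 lists for 1235 regions (92.2%). Among the 1977 pairs of region and list without a multi-exon peak, 1419 held 1 peak of fewer blocks, 396 held several and 162 (8.19%) none. Where the list held only peaks of fewer blocks, the largest had 3 blocks in 1169 of 1815 pairs.

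**Figure D2:**
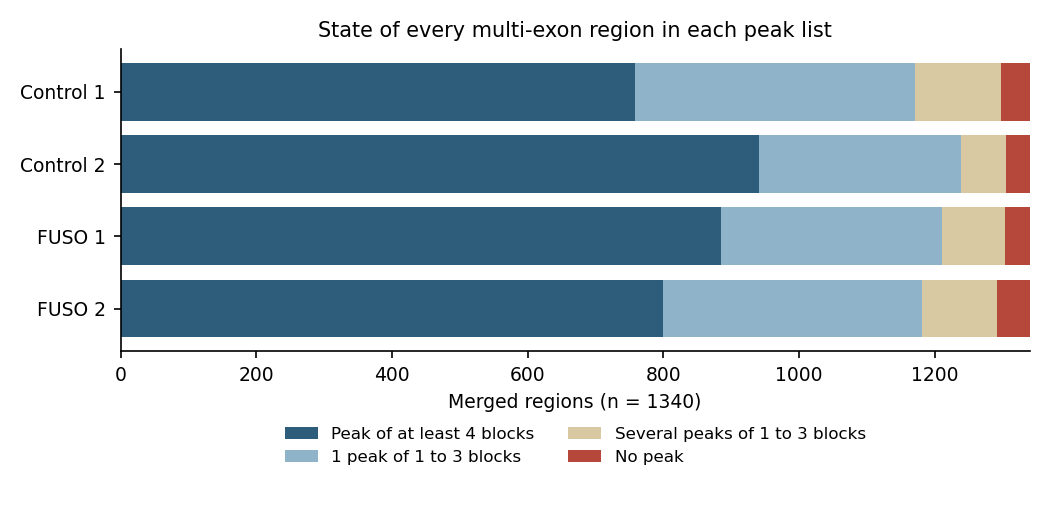
Number of the 1340 merged regions (horizontal) that held a multi-exon peak, 1 peak of fewer blocks, several such peaks or no peak, for each of the 4 lists. Between 758 and 941 regions had a multi-exon peak in a list, and 35 to 48 had no peak.

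Lists of the same group shared somewhat more regions than lists of different groups. Control 1 and Control 2 shared 620 regions with a multi-exon peak in both, 81.8% of those of Control 1 and 65.9% of those of Control 2. FUSO 1 and FUSO 2 shared 641, 72.4% and 80.2%. Between the groups 547 to 644 were shared, from 63.6% to 77.2% of either list. Of the regions with a multi-exon peak in either list of a pair, 57.5% and 61.5% were shared within Control and within FUSO, against 52.1% to 54.9% in the 4 pairs between the groups. No test was made of this difference.

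A multi-exon peak in both Control lists and in no FUSO list was found in 79 regions (5.90%), and in both FUSO lists and no Control list in 55 (4.10%). In 73 and 49 of these the other lists both held peaks of fewer blocks, and no peak lay in either other list for 3 and 2. With a peak of any block count taken as presence, 13 regions (0.970%) were seen in both Control lists alone and 8 (0.597%) in both FUSO lists alone. Over all 22001 merged regions of the series these shares were 2.64% and 2.38%. A region entered through the largest of its peaks in any list, which favours regions present in several lists.

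The regions limited to 1 group by block count differed in GC content. Those of Control had a median of 56.8% (quartiles 51.5% and 61.7%) and those of FUSO of 42.4% (39.5% and 48.5%), with 45.6% for the 462 regions present in all 4 lists. GC content moved with the group in the members at large, with means of 48.3% and 48.4% in Control and 46.1% and 45.8% in FUSO, a difference of -2.36 points (n = 2, exact permutation p = 0.333, the smallest possible). It moved in the same direction in peaks of 1 block, at 52.5%, 52.6%, 51.5% and 51.1% (difference -1.24 points, n = 2, exact p = 0.333). The part of GC content in the difference between the groups was not tested. GGAC density was likewise lower in both FUSO lists (difference -0.579 per 1000 nt, n = 2, exact p = 0.333) and DRACH density higher (0.851, exact p = 0.333), while mean purine content differed by -0.0229 points (exact p = 1). The median log2 change in FPKM was -0.09 for 77 tested regions of the Control set and 0.01 for 52 of the FUSO set. None of their genes passed the test, beside 0.803% of all tested genes.

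Of the 13 and 8 regions with peaks in 1 group alone, 8 on each side are named. Some are given with the deposited score of the peak, which is its p-value from the authors' caller. The weakest score among those named was 0.00098 on the Control side, for C21orf59 in Control 2, and 0.0021 on the FUSO side, for DZIP3 in FUSO 2. The 8 named regions on the Control side covered at most 477 nt in 1 peak, apart from C21orf59 at 481 nt, and those on the FUSO side at most 390 nt, apart from BIRC3. On the Control side SART1, a protein of the tri-snRNP, had 5 exons in both Control lists, with deposited peak scores of 6e-10 and 1e-12 (chr11:65732580-65733658, plus strand). CLASRP, a splicing regulator, had 5 and 6 exons, and CLTB, a clathrin light chain, 4 and 4. HDGFL2, MAP7, which binds microtubules, CTTN, the actin regulator cortactin, and LIG1, a DNA ligase, had a multi-exon peak in 1 Control list and a peak of 2 or 3 exons in the other. SART1, HDGFL2 and LIG1 each had a second region, with a multi-exon peak in 2, 2 and 1 lists. C21orf59 was also among them, at a locus shared with a readthrough transcript. FPKM of SART1 was 19.9, 18.7, 14.01 and 14.9 and of CLASRP 31.7, 28.0, 22.4 and 21.5, lower in both FUSO libraries without passing the test (limma, log2 change -0.39 ± 0.07, adjusted p = 0.132, and -0.43 ± 0.08, adjusted p = 0.139).

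On the FUSO side BIRC3 (chr11:102196229-102206916, plus strand), an inhibitor of apoptosis induced by NF-kB, had a peak of 5 exons and 659 nt in FUSO 1 (deposited score 7.9e-30) and of 3 exons and 480 nt in FUSO 2 (deposited score 1.3e-15). In the input BIRC3 stood at 0.429 and 0.449 FPKM without the bacterium and at 4.17 and 4.08 FPKM with it. With so little BIRC3 RNA in Control, a missing peak there and a missing transcript cannot be told apart. CCP110, a centriolar protein, had 4 exons in both FUSO lists, with deposited scores of 4.1e-06 and 7.8e-05, and ASPH 4 and 5, with scores of 7.6e-05 and 3.1e-05. SNAPC1, RBM27, EHBP1, CALCOCO1 and DZIP3 had a multi-exon peak in 1 FUSO list and 2 or 3 exons in the other. EHBP1 also had a second region, with a multi-exon peak in all 4 lists. The FPKM of these 7 genes did not differ past the threshold, with log2 changes from -0.17 to 0.31 (limma, smallest adjusted p = 0.361).

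In the 462 regions with a multi-exon peak in all 4 lists the covered length was close in the 2 groups. It averaged 920.3 and 953.6 nt in Control and 944.9 and 932.0 nt in FUSO, a difference of 1.48 nt (n = 2, exact permutation p = 1). Both FUSO lists were longer than both Control lists in 88 regions and shorter in 89. The largest block count was the same in all 4 lists for 210 regions.

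Genes with a multi-exon peak were well expressed. Of 11088 genes tested, 1224 (11.0%) had one, with a median FPKM of 16.8, 16.8, 17.0 and 16.8 in Control 1, Control 2, FUSO 1 and FUSO 2. Genes with peaks of 1 to 3 blocks only had medians of 8.47 to 8.58 and genes without a peak of 8.28 to 8.74. FPKM of a gene does not say how much of its RNA carried m6A, and in bulk RNA fewer cells that express a gene and less RNA per cell cannot be told apart.

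Exposure to F. nucleatum changed the level of few of these genes. By limma on log2(FPKM + 1) with Benjamini-Hochberg adjustment over all 11088 genes, 8 of the 1224 (0.654%) rose and none fell. An unadjusted p under 0.05 was found for 185 of the 1224. It was found for 1114 of 8080 genes with smaller peaks only and for 196 of 1780 genes without a peak. Leaving out either Control library brought more calls among these genes, some of them falls, and also more among all tested genes. In the full fit 0.803% of all tested genes passed, 0.667% upwards and 0.135% downwards. The share of 0.654% among these genes was close to that background. The median log2 change was -0.01 for the 1224 genes and 0.01 for those with smaller peaks only.

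BIRC3 rose most, by 1.83 ± 0.09 on the log2 scale (SE, adjusted p = 0.00183), and was the only one of the 8 that kept its call whichever library was left out. With a pseudocount of 0.1 in place of 1 its change was 2.97, since its Control values lie under 1 FPKM. CDV3 went from 27.8 and 23.8 FPKM in Control to 61.3 and 61.1 in FUSO (1.22 ± 0.08, adjusted p = 0.00723), and its 4-exon peak was seen in Control 2. EFNA1, which encodes ephrin-A1, went from 14.6 and 16.2 to 29.6 and 29.4 (0.90 ± 0.07, adjusted p = 0.0114). EPHA2, its receptor, went from 76.4 and 75.5 to 100.5 and 104.0 (0.42 ± 0.05, adjusted p = 0.0405). In these genes both FUSO libraries stood above both Control libraries, as they did in the other 4.

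KLF6, a zinc finger transcription factor, stood at 25.5 and 26.0 FPKM in Control and 41.0 and 41.4 in FUSO (0.66 ± 0.06, adjusted p = 0.0137). NR4A1, an immediate-early nuclear receptor, stood at 9.03 and 10.5 against 16.9 and 18.1 (0.78 ± 0.09, adjusted p = 0.0339). RGS2, a regulator of G protein signalling, had 34.5 and 34.4 against 49.6 and 55.0 (0.59 ± 0.07, adjusted p = 0.0346) and CLCF1, a cytokine of the interleukin-6 family, 32.1 and 30.3 against 44.6 and 48.1 (0.56 ± 0.07, adjusted p = 0.0385). Leaving out either FUSO library ended the calls of all but BIRC3, with adjusted p from 0.0968 to 0.429. CLCF1, EPHA2, NR4A1 and RGS2 also lost their calls without the filter on low values (adjusted p from 0.0744 to 0.103) and without trend (0.0575 to 0.131).

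**Figure D3:**
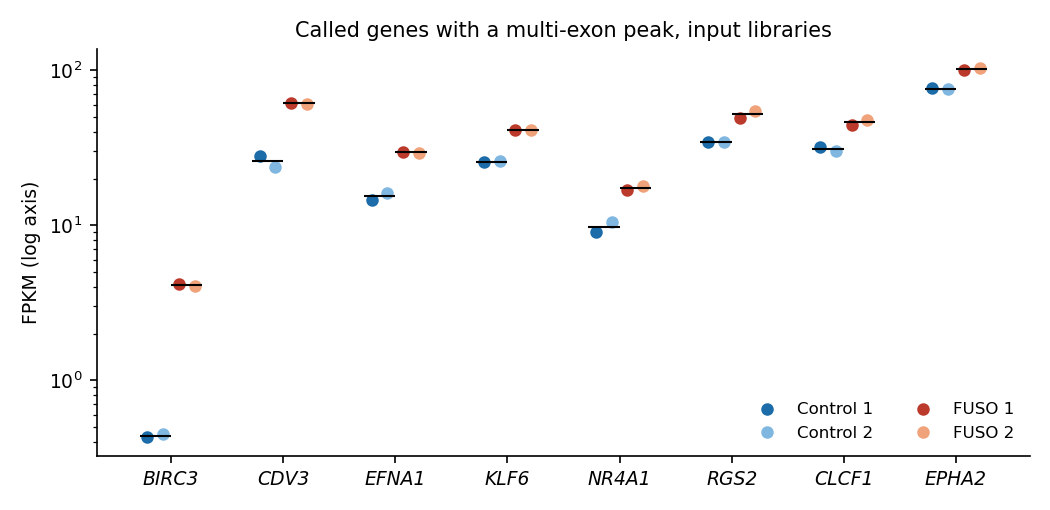
FPKM (log axis) of the 8 genes with a multi-exon peak that passed limma, with a point for each input library and a line at each group mean (n = 2). In every gene both FUSO points lie above both Control points, with the widest gap in BIRC3, from 0.429 and 0.449 to 4.17 and 4.08.

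The peaks of these genes did not follow their expression in 1 way. NR4A1 had peaks of at most 1 and 2 exons in Control and 4 and 3 in FUSO, covering 509, 689, 957 and 808 nt, and EFNA1 had 3, 4, 4 and 4 exons. KLF6 reached 4 exons only in Control 2, CLCF1 only in FUSO 1, and EPHA2 had 4, 4, 4 and 3. RGS2 had 3, 4, 5 and 4 exons and covered 781, 720, 960 and 871 nt.

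Several gene groups held multi-exon peaks at more than the 11.0% of all tested genes, given as counts without a test. Groups and background were not matched for FPKM, number of exons or presence of a peak. Of all tested genes 0.803% passed the test on FPKM, which is the background for the calls in the groups below. A peak of any block count lay in all 34 splicing factors and in 9 of 18 listed glycolytic genes, while 1780 tested genes had none. Of the m6A writers, erasers and readers 6 of 18 tested had one, of the splicing factors 10 of 34, of the exon junction complex and its partners 5 of 19, of the aminoacyl-tRNA synthetases 5 of 20, of the chaperones 5 of 21 and of the translation factors 7 of 34. The large cytoskeletal and motor proteins had 4 of 23, laminins, collagens and integrins 2 of 18, NF-kB and cytokine response genes 2 of 20, HECT ubiquitin ligases 1 of 19 and glycolytic enzymes 0 of 17.

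In the m6A machinery METTL14, the partner of METTL3, WTAP, which anchors the writer complex, ZC3H13, a further subunit, and the reader YTHDF2 had a multi-exon peak in all 4 lists, at up to 5, 7, 8 and 5 exons. The readers YTHDF1 and YTHDF3 reached 4 exons in 1 list each. ZC3H13 had 2730 nt of peak with 60.5% purines. None of the 18 tested genes of this group passed the test on FPKM, and the 6 had log2 changes from -0.27 to 0.08 (limma, smallest adjusted p = 0.316).

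Among partners of the exon junction complex, PNN, UPF3A and UPF3B had multi-exon peaks in all 4 lists with up to 9, 6 and 8 exons and 65.0%, 66.9% and 69.2% purines. UPF2, which like UPF3A and UPF3B acts in nonsense-mediated decay, had 2 regions, and CASC3, a core subunit, had 4 and 7 exons in Control 1 and Control 2 and at most 2 and 3 in the FUSO lists. None of the 19 tested passed the test on FPKM. The other core subunits, EIF4A3, MAGOH, MAGOHB and RBM8A, had no multi-exon peak.

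Of the splicing factors HNRNPA1, HNRNPA2B1, HNRNPD, HNRNPM, HNRNPU, SRSF5, SRSF11 and TRA2A had a multi-exon peak in all 4 lists, and DDX5 and HNRNPL in 1. SRSF5 and HNRNPA2B1 reached 8 exons. None of the 10 passed the test on FPKM, while 1 of the 34 tested splicing factors, without a multi-exon peak, fell. Of the translation factors EIF3A and EIF5B reached 11 exons and EIF2S2, EIF3C, EIF4B, EIF5 and PABPC4 4 or 5. EIF3C has a near-identical copy, so its peaks are uncertain.

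Of the NF-kB and cytokine response genes 2 of 20 tested had a multi-exon peak, a share (10.0%) close to the 11.0% of all tested genes. In this group 14 of 20 rose and none fell (median log2 change 1.42), against 0.667% and 0.135% of all tested genes. The list was written with earlier results of these data known, so its count is no independent result. BIRC3 was the 1 that rose and had a multi-exon peak. BIRC2, a close relative, had peaks of up to 8 exons and 1939 nt in all 4 lists and a log2 change of 0.29 (limma, adjusted p = 0.191). Of the chaperones HSPA4, HSP90AA1 and DNAJA1 had multi-exon peaks in all 4 lists, and HSP90B1, which folds proteins of the endoplasmic reticulum, had 3 separate regions in 2 lists each. None of the chaperone or aminoacyl-tRNA synthetase genes passed the test on FPKM.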

How the data were processed

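Poly(A) RNA of HCT116 cells was sequenced as m6A IP and input, with 2 replicates per group that the methods call biological. Per the labels and methods, the authors trimmed reads (Trim Galore 0.3.3), aligned them to hg19 (HISAT2 2.1.0) and called peaks for each replicate. The methods name MACS2, while exon blocks and gene names in the deposited lists are the layout of exomePeak. The score of a peak was read from its range as a p-value that the authors deposited, and the block count was used as deposited. The authors computed FPKM of the input libraries with StringTie. No read count was given, so neither intervals nor floors could be computed.

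Peaks of at least 4 blocks were merged by shared exon bases on 1 strand (pandas 2.3.3). Sequence came from GRCh37 (pysam 0.24.0) and positions from the GENCODE canonical transcript (release for GRCh37) where it held at least 90% of the exon bases of a peak. A midpoint within 100 nt of the stop codon was counted as stop, not as coding. FPKM were compared by limma 3.58.1 with trend on log2(FPKM + 1), which understates changes of low genes, keeping genes whose mean reached 1 FPKM, at an adjusted p under 0.05. The study's methods name a count model, which FPKM do not allow. Peak lists were compared by exact permutation. Relative depth was the most frequent ratio of genes at or below 0.05 FPKM. Merging and limma were tested on simulated data.

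Genes were named by rule: the 8 regions with the most blocks, the 5 longest, the 10 present in all lists with the lowest p, up to 8 per group with peaks in that group alone, up to 10 called genes per direction, and members of 11 gene lists. Regions tied at a p of 0 were ranked by length. The members, lists and tests were chosen with earlier results of these data known.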

Additional observations from a re-analysis of the deposited data

How the results depend on the processing

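With a peak of any block count taken as presence, the regions limited to Control went from 79 to 13 and those limited to FUSO from 55 to 8. With a reciprocal overlap of 50% of exon bases they were 47 and 27, and with peaks at p of at most 1e-05 they were 78 and 56. Without each list in turn they ranged from 118 to 230 and from 91 to 180, since fewer lists had to meet the condition. The 8 called genes with a multi-exon peak became 4 without the filter on low values, where more genes entered both the fit and the adjustment. That was 0.323% of the genes with a multi-exon peak, beside 0.255% of all tested genes. The 8 became 4 without trend (0.327%, beside 0.541% of all tested genes), with CLCF1, EPHA2, NR4A1 and RGS2 lost in both settings. They were 8 with a pseudocount of 0.1 and 8 with quantile normalization, and ranged from 1 to 37 without each library in turn, where the lone library of a group is assumed to vary like the other group. Over all tested genes the calls also became more without either Control library and fewer without either FUSO library. With a replicate block 7 genes with a multi-exon peak were called (0.572%), EPHA2 being lost (adjusted p = 0.0699). Of all tested genes 0.812% passed there. The replicate numbers were not taken as a pairing, since the deviations of equally numbered libraries from their group means correlated at 0.0243 over 11088 genes. All 72 refitted changes of the 8 genes stayed positive, 49 of them past the threshold.

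DRACH in place of GGAC turned the difference between members and peaks of 1 block from -0.615 to 2.20 per 1000 nt. The differences in coding share (34.2 to 47.6 points), GC content (-6.24 to -4.54 points), GGAC (-0.834 to -0.524 per 1000 nt), purine share (6.65 to 8.78 points) and GAA (14.3 to 20.7 per 1000 nt) kept their direction under every other alternative run. The alternatives for purine share and GAA, and those restricted to coding peaks, were chosen after seeing the data. At thresholds of 3 and 5 blocks the difference in count between FUSO and Control was -108 and 1, and without each list in turn it ranged from -104.5 to 80.5 with the share from -0.457 to 0.322 points. The depth of the IP libraries is unknown, and with 2 lists a group no comparison of lists could pass a threshold of 0.05.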
